A study of Homo sapiens with 6 samples.

Results

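The proteasome genes were taken by name: every protein-coding feature of the deposited expression table whose symbol begins with PSMA, PSMB, PSMC, PSMD, PSME, PSMF or PSMG followed by a number. The rule gave 46 genes of 18999 listed features, and 44 of them were expressed highly enough to be tested among 11271 features. The rule itself uses no measured value. The RNA came from MCF10A cells, an immortalised, non-tumorigenic human mammary epithelial line. One group carried the retroviral vector pMSCVpuro with the pre-miR-203a hairpin and the control group carried pMSCVpuro without an insert. Both groups were stably transduced and selected with puromycin, and each gave 3 libraries, called here empty-vector (or control) and pre-miR-203a (or hairpin) libraries 1 to 3. The stated purpose was to identify target genes of the microRNA miR-203a. The labels do not say whether the 3 libraries came from separate transductions or cultures, so the spread that the p-values measure may be technical.

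The proteasome is the protease that degrades ubiquitin-tagged proteins in the cytosol and nucleus. Its barrel-shaped core is built of stacked rings of alpha and beta subunits, and 3 kinds of beta subunit carry the cutting sites. A regulatory particle docks on the core: its base holds a ring of ATPases that unfold the substrate, and its lid removes ubiquitin. Dedicated chaperones assemble both particles and are not part of the finished enzyme. Under interferon, immunoproteasome beta subunits replace the catalytic ones and change which peptides are made for antigen presentation. MicroRNAs lower target messenger RNAs mostly through pairing of their bases 2 to 8, the seed, with the 3′ untranslated region (UTR).

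The mature strand made from the introduced hairpin, miR-203a-3p, is shown because its seed was searched for in the proteasome messages. Capitals mark the seed. RefSeq places it at chr14:104117469-104117490 of GRCh38.p14 on the plus strand.
miR-203a-3p: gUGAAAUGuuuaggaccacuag

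Below are stretches of GENCODE 29 3′ UTRs on GRCh38 that hold a match to the whole seed in PSMD5, PSMA4 and PSME4, 3 of the genes that fell, and in PSMF1, whose level did not pass the test. Capitals mark the bases that match the seed, and in PSMF1 also the A opposite microRNA base 1. They are written 5′ to 3′ on the strand of the gene. The PSMD5 stretches lie on the minus strand of chromosome 9 at chr9:120816943-120816964 and chr9:120816060-120816081. Those of PSMA4 lie on the plus strand at chr15:78548962-78548983 and chr15:78552207-78552228. The PSME4 stretch is at chr2:53865200-53865221 on the minus strand, and the PSMF1 stretch at chr20:1166332-1166353 on the plus strand.
PSMD5 first site: gattcctaaactgtCATTTCAt
PSMD5 second site: taaatcattattttCATTTCAt
PSMA4 first site: ctcatttggggcacCATTTCAg
PSMA4 second site: tcactaatagcaagCATTTCAt
PSME4 site: aatacaggtcctgtCATTTCAt
PSMF1 site: cgctctgcagctagCATTTCAA

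Depth ranged from 7632063 reads over the listed features, in pre-miR-203a library 3, to 35084590, in empty-vector library 2, a 4.60-fold range. The MIR203A feature measured 4.63, 5.44 and 6.96 FPKM (fragments scaled to feature length and library size) with the empty vector and 19006, 3699 and 24945 FPKM with the hairpin, in the order of the replicate numbers. Both libraries numbered 3 stood apart from the others on the second principal component, which held 26.6% of the variance. The series text and the molecule label name total RNA, while the extraction text describes an AGO2 immunoprecipitation, and which applied could not be settled. All 8 epithelial markers were expressed, with a summed FPKM of 1049 to 1343 in the empty-vector libraries and 972 to 1405 in the pre-miR-203a libraries. One of the 8 was called higher and 1 lower by limma. Of the 3 endothelial markers none reached FPKM 1 in any library, and the summed FPKM of 3 fibroblast markers was 3.75 to 6.59 in the controls and 5.49 to 9.20 with the hairpin. Of these COL1A1 was called higher, with a log2 fold change of 0.63 ± 0.12 (limma, adjusted p = 0.0129).

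Most proteasome genes had similar levels in both groups, and 4 genes fell. PSMD5, a chaperone of the base, fell to 33.4% of its control level. PSMA4, a subunit of the core's alpha ring, fell to 50.6%, PSMG1, a chaperone of the core, to 62.2% and PSME4, an activator that caps the core, to 64.2%. No member rose. Differences were tested with limma on log2(FPKM + 1), with Benjamini-Hochberg adjustment over all 11271 features tested and a call at an adjusted p under 0.05. The 4 of 44 tested members that fell make up 9.09%, and 9.18% of all tested features fell, so the share of members is close to the background. Without control library 1, control library 2 or hairpin library 1, 2 members were called lower. In these fits the features called lower numbered 422, 527 and 541 in that order, in place of 1035. Without both libraries numbered 3, 8 members were called lower, while the features called lower numbered 1951 in place of 1035. Against 0 members that rose stood 6.59% of all tested features. With the deposited TPM values in place of FPKM, the split over all features moved from 1035 lower and 743 higher to 1005 lower and 434 higher.

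At an unadjusted p under 0.05, 7 members were lower and 0 higher, where the shares of all tested features were 17.1% and 13.0%. With limma-voom on reads recovered from the FPKM values, 5 members were lower and 0 higher, against 9.72% and 7.21% of all tested features. In the authors' deposited table, whose DESeq2 comparison gives an adjusted p for all 46 members, 5 were lower and 0 higher, against 9.45% and 8.80% of all features with an adjusted p there. The fifth gene in both was PSMB9, an immunoproteasome subunit described below. The 2 groups did not overlap for 7 members that were lower in every pre-miR-203a library, 15.9% of those tested against 20.9% of all tested features. They did not overlap for 1 member that was higher in every such library, PSMD4, which is 2.27% against 16.6%. PSMB9 is among the 7 lower members. It met the filter of FPKM 1 in at least 3 libraries only through its controls, so its lack of overlap was fixed by the filter.

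The fold changes of the members were spread more narrowly than those of all tested features. Their median log2 fold change, pre-miR-203a over empty vector, was −0.05 and the interquartile range ran from −0.18 to 0.05. Over all tested features the median was −0.01 and the interquartile range ran from −0.24 to 0.20. In 36 members the log2 fold change was within 0.25 of 0, which is 81.8% of those tested, against 55.1% of all tested features. The median standard error was 0.13 for the members and 0.15 for all tested features.

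**Figure D1:**
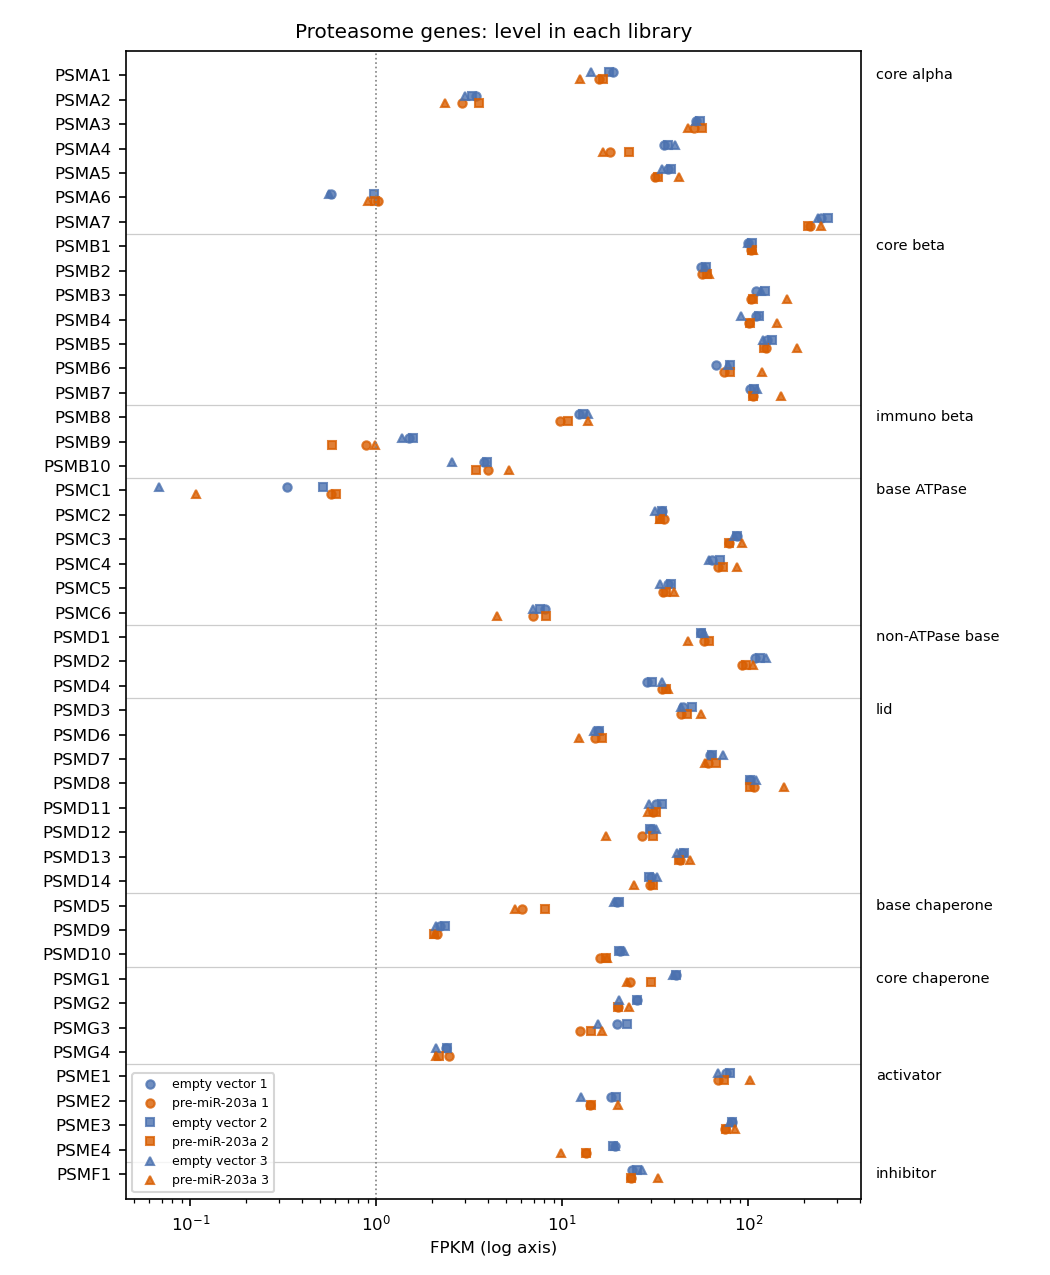
FPKM (log axis) of all 46 proteasome genes in each of the 6 libraries, ordered by role; circles, squares and triangles are libraries 1, 2 and 3, blue for empty vector and orange for pre-miR-203a, and the dotted line is FPKM 1. The groups lie on top of each other for most genes, while PSMD5, PSMA4, PSMG1 and PSME4 are lower in all 3 pre-miR-203a libraries; PSMC1 lies under FPKM 1 in all 6 libraries.

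**Figure D2:**
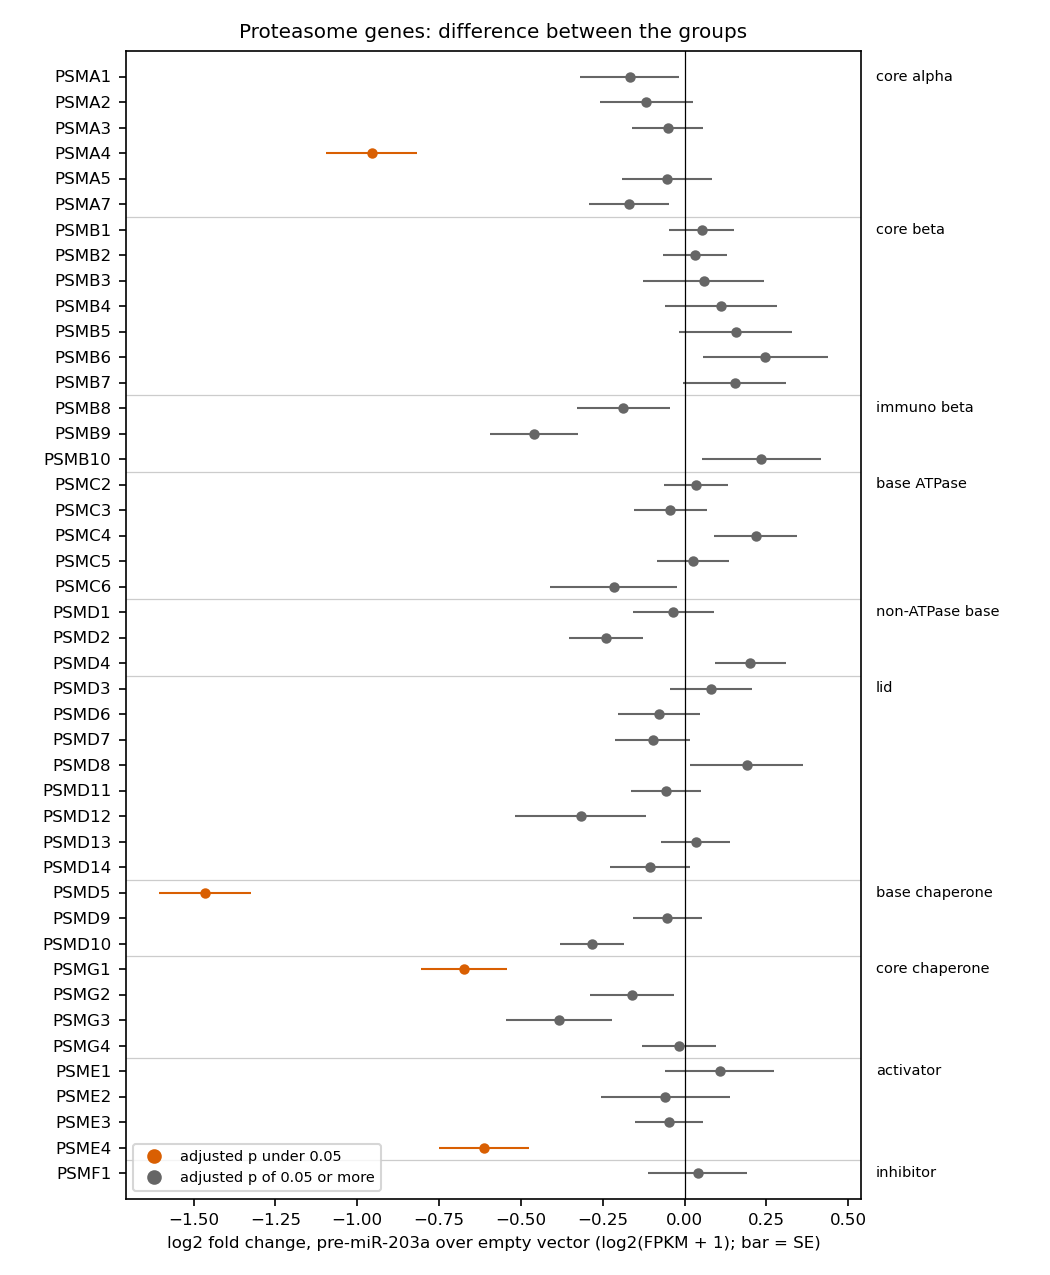
Log2 fold change of pre-miR-203a over empty vector for the 44 tested members, on the log2(FPKM + 1) scale, with bars of 1 standard error from limma (3 libraries per group). The 4 members with an adjusted p under 0.05, in orange, range from −1.46 for PSMD5 to −0.61 for PSME4.

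Among the alpha subunits of the core, PSMA4 was the member that fell. The alpha rings form the gate through which substrates enter; the yeast counterpart of PSMA4, Pre9, is the sole nonessential core subunit there. PSMA4, at chr15:78540405-78552419 on the plus strand, measured 35.4, 37.2 and 40.4 FPKM with the empty vector. With the hairpin it measured 17.9, 22.7 and 16.6 FPKM. Every pre-miR-203a value was under the lowest control value. The log2 fold change was −0.96 ± 0.14 (SE, n = 3 per group; limma, adjusted p = 0.00642), and with each library left out in turn the adjusted p was 0.00586 to 0.0319. The authors' deposited table gives −0.96 (adjusted p 2.51e-06).

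The other alpha subunits did not pass the test, with adjusted p of up to 0.843 in limma. PSMA7, the alpha subunit with the highest level, had FPKM of 250 ± 14.8 in the empty-vector group and 223 ± 20.5 in the pre-miR-203a group (SD, n = 3), a log2 fold change of −0.17 ± 0.12. The 4 others that were tested, PSMA1, PSMA2, PSMA3 and PSMA5, had log2 fold changes from −0.17 to −0.05. All 6 tested alpha subunits thus had a log2 fold change below 0, and their median was −0.14. Of the 44 tested members 27 had one below 0. Without pre-miR-203a library 3 the alpha median was −0.12, with PSMA3 at 0.01 and the others from −0.87 to −0.01. PSMA8 was not analysed here.

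PSMA6, another alpha subunit that the core needs, lay under the filter of FPKM 1 in at least 3 libraries and was not tested. It measured 0.567, 0.968 and 0.557 FPKM with the empty vector and 1.01, 0.989 and 0.906 FPKM with the hairpin, from 45 to 221 reads. The alpha subunits, which enter each core in equal number, thus ranged in mean control FPKM from 0.697 for PSMA6 to 250 for PSMA7. Of the annotated PSMA6 exon bases 14.1% also belong to another gene on the same strand, so reads there may not have been assigned to PSMA6. Whether that, or pseudogene copies, accounts for the low level was not tested.

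The 7 constitutive beta subunits, which include the 3 catalytic ones, had no member past the test, with adjusted p of 0.446 to 0.881 in limma. Their mean FPKM in the empty-vector group ran from 57.8 for PSMB2 to 127 for PSMB5. PSMB5, which carries the chymotrypsin-like site, measured 125, 134 and 120 FPKM with the empty vector and 125, 122 and 183 FPKM with the hairpin. PSMB6, which carries the caspase-like site, measured 66.8, 79.7 and 78.2 FPKM in the controls and 73.6, 80.0 and 119 FPKM with the hairpin. For both genes libraries 1 and 2 of the pre-miR-203a group lay among the controls and library 3 lay above every other library. Log2 fold changes were 0.16 ± 0.17 for PSMB5 and 0.25 ± 0.19 for PSMB6.

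All 7 of these beta subunits had their highest value in pre-miR-203a library 3. Their summed FPKM was 670, 722 and 675 with the empty vector and 668, 680 and 923 with the hairpin. The median log2 fold change of the class was 0.11, and without pre-miR-203a library 3 it was −0.01. That library is the shallowest of the 6.

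More widely, 34 of the 44 tested members had their highest or lowest value in pre-miR-203a library 3, 20 the highest and 14 the lowest. This is 77.3% of the members, against 54.7% of all tested features. The log2 ratio of library 3 to the mean of pre-miR-203a libraries 1 and 2 ran from −0.70 for PSMD12 to 0.63 for PSMB3. It went with feature length: across the 44 members Spearman's rho was −0.59, and across all 11271 tested features it was −0.32, described over genes that share the same libraries. The 16 members shorter than 3000 nucleotides had a median ratio of 0.29 on the log2 scale, and the 28 longer ones −0.02. For empty-vector library 3 against its own group, rho across the members was 0.11. The part of RNA quality, depth or length in these differences was not tested.

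**Figure D3:**
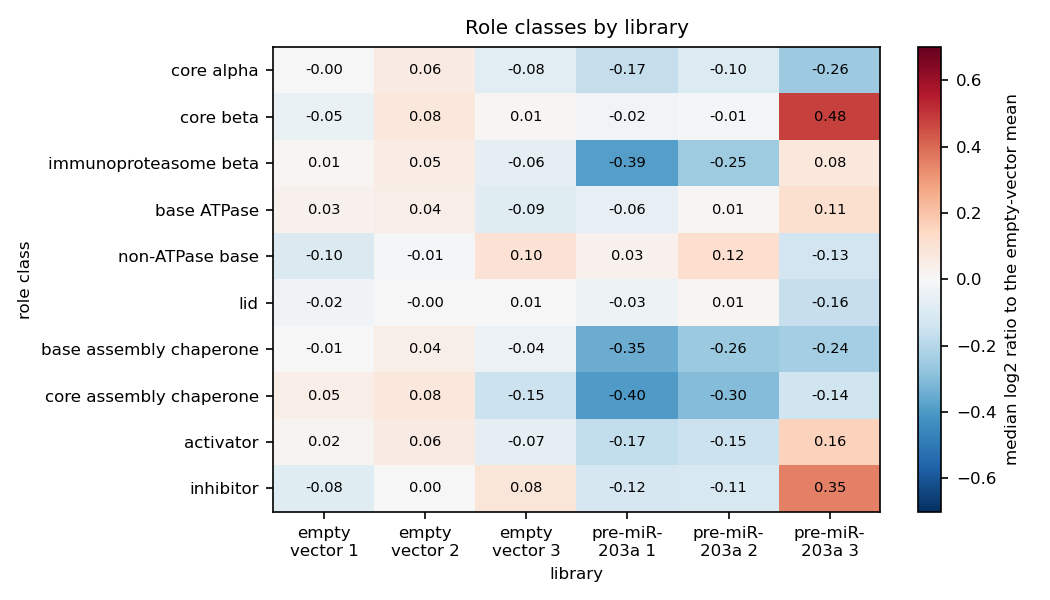
Median over the tested members of each role class of the log2 ratio to the mean of the empty-vector libraries, on the log2(FPKM + 1) scale, for each library. Core beta subunits are at 0.48 in pre-miR-203a library 3 and between −0.02 and −0.01 in libraries 1 and 2. Core alpha subunits and both chaperone classes are below 0 in all 3 pre-miR-203a libraries. For core chaperones the groups overlap, with empty-vector library 3 at −0.148 and pre-miR-203a library 3 at −0.140.

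The 3 immunoproteasome beta subunits were expressed at low levels, as the inducible counterparts of PSMB5, PSMB6 and PSMB7. PSMB9, the counterpart of PSMB6, measured 1.51, 1.57 and 1.38 FPKM with the empty vector and 0.881, 0.575 and 0.981 FPKM with the hairpin. These values rest on 79, 184 and 132 control reads and on 49, 40 and 25 reads with the hairpin. The groups did not overlap, and the gene passed the filter only through its control libraries. Its log2 fold change was −0.46 ± 0.13, with an adjusted p of 0.0588 in limma and of 0.0379 in limma-voom. The authors' deposited table gives −0.89 (adjusted p 0.0282). Of its exon bases 5.66% overlap PSMB8 or PSMB8-AS1, and the strand setting of the counting is not given in the sources used here.

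PSMB8, the counterpart of PSMB5, had FPKM of 13.0 ± 0.794 in the empty-vector group and 11.4 ± 2.09 in the pre-miR-203a group (SD, n = 3). This is a log2 fold change of −0.19 ± 0.14. PSMB10, the counterpart of PSMB7, had 3.43 ± 0.766 and 4.20 ± 0.871, a log2 fold change of 0.23 ± 0.18. Neither passed the test, with adjusted p of 0.437 and 0.447 in limma. Summed over the 3 genes, immunoproteasome FPKM was 5.97%, 5.71% and 5.73% of the summed FPKM of PSMB5, PSMB6 and PSMB7 in the empty-vector libraries. With the hairpin it was 4.77%, 4.80% and 4.40%, so the ratio was lower in each of them than in any control. In library 3 the denominator was 451 FPKM, against 294 to 321 in the controls, and the sum of the immunoproteasome genes there was 19.8 against 17.5 to 18.4.

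Genes that act with the immunoproteasome in antigen presentation and in the interferon response were set beside it. Of a list of 12 such genes, 10 were tested. Limma called none of them in either direction, against 9.18% lower and 6.59% higher over all tested features. At an unadjusted p under 0.05, 0 were lower and 1 was higher, TAPBP, a chaperone of peptide loading named after its values were seen. Limma-voom called 0. Across the list the median log2 fold change was 0.04. Since blood cells carry immunoproteasomes, leukocyte markers were also read. The summed FPKM of the 5 markers read was 8.69 to 14.9 in the empty-vector libraries and 25.5 to 35.8 in the pre-miR-203a libraries. CD14 and CSF1R rose, with log2 fold changes of 1.34 and 1.14 (adjusted p of 0.0117 and 0.00758, limma). CD68 and ITGAM stayed under FPKM 1 in every library, and PTPRC, CD3E and MS4A1 were not analysed here. The part of such cells in the levels was not tested. In bulk RNA, fewer cells of a type and less RNA per cell cannot be told apart.

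The ATPases of the base, which unfold substrates and thread them into the core, did not pass the test. PSMC4 measured 63.9, 70.6 and 61.5 FPKM with the empty vector and 68.8, 73.1 and 87.2 FPKM with the hairpin, with a log2 fold change of 0.22 ± 0.13. PSMC6 measured 8.09, 7.60 and 6.99 FPKM in the controls and 6.95, 8.17 and 4.47 FPKM with the hairpin, with a log2 fold change of −0.22 ± 0.19. Both genes are at their extreme in library 3, in opposite directions. PSMC2, PSMC3 and PSMC5 had log2 fold changes from −0.04 to 0.03. The median of the 5 tested ATPases was 0.03, and −0.07 with the TPM values. The median of all tested features was −0.01, and −0.11 with the TPM values.

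PSMC1, the sixth ATPase and also a part of every complete base, was under the filter. It measured 0.332, 0.516 and 0.0682 FPKM with the empty vector and 0.568, 0.603 and 0.107 FPKM with the hairpin. The reads behind these values numbered 5 to 111. Both libraries numbered 3 were the lowest. Of the annotated exon bases of PSMC1 75.8% also belong to NRDE2 on the opposite strand, so reads may have been left unassigned if strand was not used; this was not tested.

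The other subunits of the base include the ubiquitin receptor PSMD4 and the large scaffold subunits PSMD1 and PSMD2. PSMD2 measured 109, 116 and 125 FPKM with the empty vector and 92.7, 97.0 and 106 FPKM with the hairpin. Each pre-miR-203a value was below every control, by a log2 fold change of −0.24 ± 0.11 that did not pass the test (adjusted p = 0.206, limma). PSMD4 measured 28.7, 30.2 and 34.2 FPKM in the controls and 34.3, 35.9 and 36.8 FPKM with the hairpin. Its groups did not overlap either, although control library 3 and hairpin library 1 nearly met. For PSMD4 the difference was 0.20 ± 0.11 on the log2 scale (adjusted p = 0.268, limma). PSMD1 had a log2 fold change of −0.03 ± 0.12.

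None of the 8 lid subunits passed the test, with adjusted p of 0.343 to 0.880 in limma. PSMD12, a scaffold subunit of the lid, measured 30.0, 29.6 and 31.7 FPKM with the empty vector and 26.9, 30.6 and 17.2 FPKM with the hairpin. Library 3 alone lay well below the others. PSMD12 had a log2 fold change of −0.32 ± 0.20, and without pre-miR-203a library 3 it was −0.08. PSMD8 measured 102, 102 and 110 FPKM in the controls and 107, 102 and 156 FPKM with the hairpin, a log2 fold change of 0.19 ± 0.17, with library 3 above all others. PSMD14, the subunit that cleaves ubiquitin from substrates, had a log2 fold change of −0.11 ± 0.12. The remaining 5 lid subunits, PSMD3, PSMD6, PSMD7, PSMD11 and PSMD13, had log2 fold changes from −0.10 to 0.08.

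The chaperones that assemble the base held the largest fall among the members. PSMD5, at chr9:120815496-120842984 on the minus strand, binds an ATPase of the base during assembly and leaves before the particle is complete. It measured 19.7, 20.2 and 19.1 FPKM with the empty vector and 6.06, 8.05 and 5.57 FPKM with the hairpin. Every pre-miR-203a value was far below the lowest control, and the controls varied little among themselves. The log2 fold change was −1.46 ± 0.14 (SE, n = 3 per group; limma, adjusted p = 0.00242), and the adjusted p was 0.00345 to 0.0160 with each library left out. The authors' deposited table gives −1.56 (adjusted p 8.98e-15).

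PSMD10, the chaperone also called gankyrin, measured 20.3, 20.1 and 21.6 FPKM with the empty vector and 16.0, 17.1 and 17.3 FPKM with the hairpin. The groups did not overlap. Its log2 fold change was −0.28 ± 0.10, which did not pass the test (adjusted p = 0.10, limma). PSMD9, the third chaperone of the base, had 2.20 ± 0.121 in the controls and 2.08 ± 0.0413 in the pre-miR-203a group (SD, n = 3), a log2 fold change of −0.05 ± 0.11. Summed over the 3 genes, FPKM was 42.2 to 42.7 in the controls and 24.2 to 27.2 in the pre-miR-203a libraries, a difference mostly made by PSMD5.

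The chaperones of the core act in pairs: PSMG1 with PSMG2, and PSMG3 with PSMG4, early in the making of the alpha ring. PSMG1, at chr21:39174769-39183851 on the minus strand, measured 40.8, 40.8 and 39.6 FPKM with the empty vector and 23.1, 29.8 and 22.4 FPKM with the hairpin. All 3 pre-miR-203a values were below all controls. The log2 fold change was −0.67 ± 0.13 (SE, n = 3 per group; limma, adjusted p = 0.0147). The call was lost without control library 1 (adjusted p 0.0677), control library 2 (0.0588) or hairpin library 1 (0.0614). Its partner PSMG2 measured 25.3, 25.2 and 20.1 FPKM in the controls and 19.9, 20.0 and 22.7 FPKM with the hairpin, a log2 difference of −0.16 ± 0.13 (adjusted p = 0.462, limma).

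PSMG3 measured 19.7, 22.2 and 15.5 FPKM with the empty vector and 12.4, 14.2 and 16.4 FPKM with the hairpin. Empty-vector library 3 lay within the range of the pre-miR-203a group. Its log2 fold change was −0.38 ± 0.16 (adjusted p = 0.162, limma). PSMG4, its partner, had log2 fold change −0.02 ± 0.11. With both libraries numbered 3 left out, PSMG2 and PSMG3 passed the test, with adjusted p of 0.0302 and 0.0151 in limma.

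**Figure D4:**
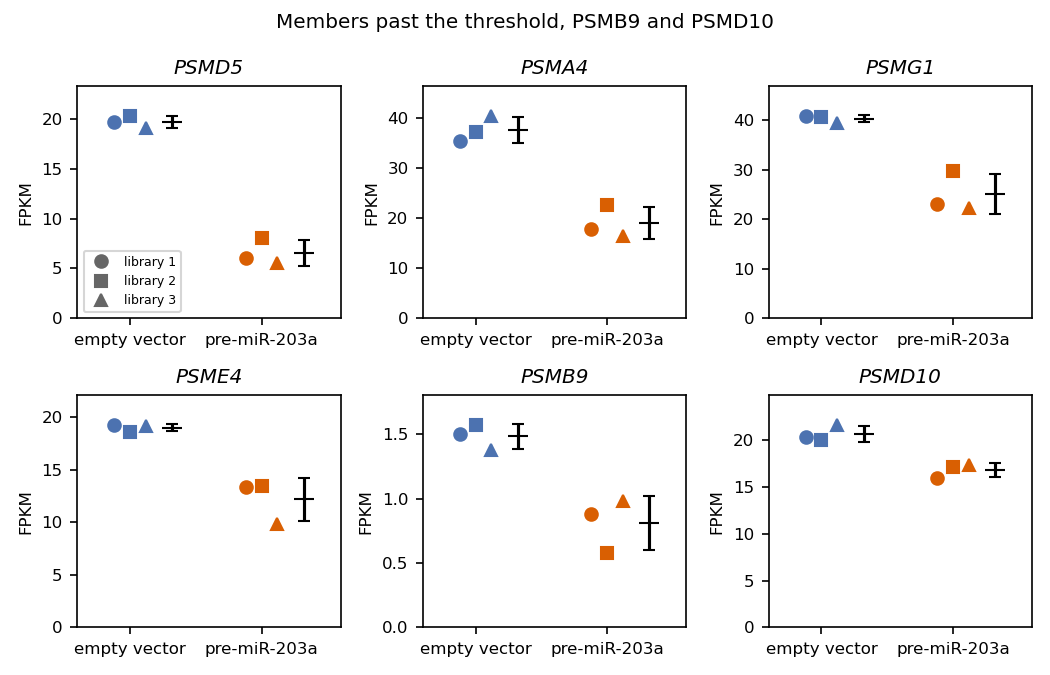
FPKM of the 4 members that fell, and of PSMB9 and PSMD10, whose adjusted p were the next lowest, in each library; circles, squares and triangles are libraries 1, 2 and 3, and the black marks are the mean with 1 SD (n = 3). In each panel the pre-miR-203a libraries lie below all empty-vector libraries, by the most in PSMD5. The panels were picked by adjusted p from these same values, and for PSMB9 the lack of overlap was fixed by the filter.

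Of the 4 activators, which cap the core and open its gate without ATP, PSME4 fell. PSME4, known as PA200, is at chr2:53864067-53970840 on the minus strand and is a large protein of the nucleus. It measured 19.2, 18.6 and 19.1 FPKM with the empty vector and 13.3, 13.4 and 9.83 FPKM with the hairpin. The controls lay close together and the pre-miR-203a libraries were all lower, library 3 the most. The log2 fold change was −0.61 ± 0.14 (SE, n = 3 per group; limma, adjusted p = 0.0240). The call was lost without control library 1 (adjusted p 0.0967), 2 (0.0780) or 3 (0.0681), and without hairpin library 1 (0.0528).

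PSME1 and PSME2 form the interferon-inducible 11S cap. PSME1 had FPKM of 74.7 ± 5.56 in the empty-vector group and 81.6 ± 18.3 in the pre-miR-203a group (SD, n = 3), a log2 fold change of 0.11 ± 0.17. PSME2 measured 18.2, 19.5 and 12.7 FPKM in the controls and 14.0, 14.2 and 19.8 FPKM with the hairpin, a log2 fold change of −0.06 ± 0.20. The libraries numbered 3 took opposite ends of the PSME2 range, and without them it was lower by a log2 fold change of −0.39 (limma, adjusted p = 0.0242). PSME3, the nuclear 11S cap, had 81.1 ± 1.10 and 78.5 ± 5.84 (SD, n = 3), a log2 fold change of −0.05 ± 0.10. PSMF1, an inhibitor of the core, had 25.3 ± 1.52 and 26.4 ± 5.35 (SD, n = 3), a log2 fold change of 0.04 ± 0.15.

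In the 4 genes that fell, the value of pre-miR-203a library 2 was the highest of its group, though for PSME4 it differed from library 1 by little, 13.4 against 13.3. Library 2 is also the one with the lowest MIR203A level of its group, 3699 FPKM. Among the 1035 features that fell, 63.4% had their highest pre-miR-203a value in library 2. Whether the MIR203A level and the size of the fall go together was not tested, since there are 3 libraries. The level of the mature microRNA was not read here.

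For each gene, seed matches were counted in its longest 3′ UTR. A 7mer-m8 pairs with bases 2 to 8 of the microRNA, an 8mer has in addition an A opposite base 1, and a 7mer-A1 pairs with bases 2 to 7 and has that A. One of these was present in 11 of the 44 tested members, or 25%, and in 34.2% of 10186 tested genes with such a UTR. The UTRs of the members were shorter, with a median of 740 nucleotides against 1656. All 4 members that fell were among the 11, and 0 of the other 33 fell. Among all tested genes 13.9% of those with a match fell and 7.79% of the rest.

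The count depended on which transcript was read. In the UTRs of APPRIS principal transcripts, a choice made after the values were seen, 7 of 43 members had a match, or 16.3%, against 29.4% of 10133 tested genes. Of these 7, PSMD5, PSMA4 and PSME4 fell. PSMG1 was the 1 of 36 other members that fell: its 7mer-A1 lies in the UTR of a transcript annotated as subject to nonsense-mediated decay. Over all genes 15.2% of those with a match in the principal UTR fell, and 7.75% of the rest.

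The same kinds of site occurred in genes that fell and in genes that did not. PSMD5 has 2 matches of the 7mer-m8 kind and PSMA4 has 2, the first only 32 bases after its stop codon. PSME4 has 1 7mer-m8. PSMF1 holds an 8mer and a 7mer-m8, and its log2 fold change was 0.04. PSMD12 holds 2 7mer-m8, PSMA5 holds 1 and PSMC2 holds a 7mer-A1, and none of these 3 passed the test. Over all tested genes the median log2 fold change was −0.19 for genes with an 8mer in the principal UTR and −0.10 for those with a 7mer-m8 as their best match. A seed match describes letters in a UTR and does not show that the microRNA binds there.

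**Figure D5:**
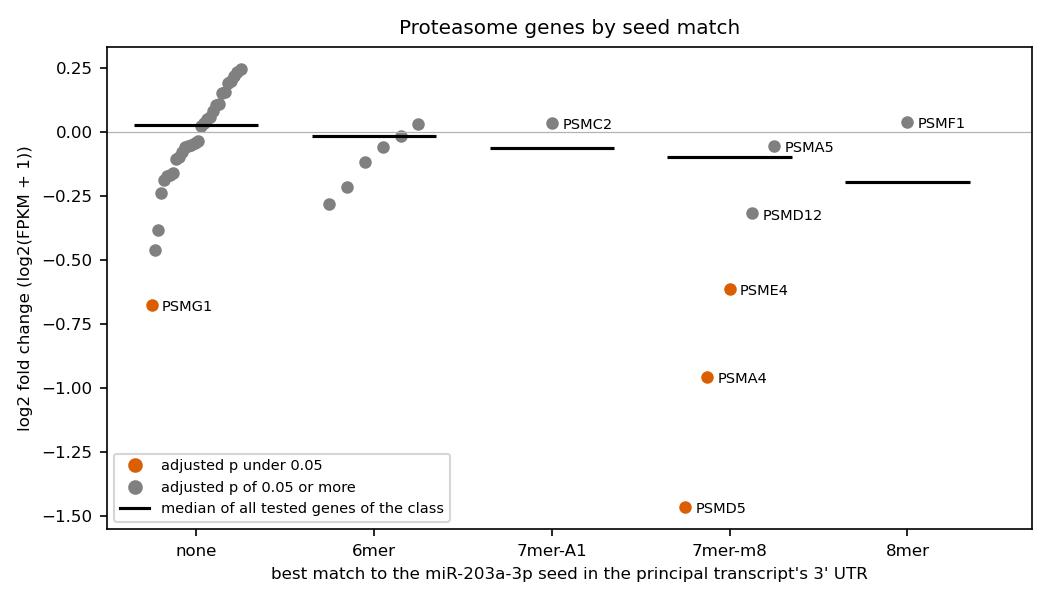
Log2 fold change (log2(FPKM + 1)) of the 43 tested members with an annotated principal 3′ UTR, by their best match to the miR-203a-3p seed; orange points have an adjusted p under 0.05 and black lines are the medians of all tested genes of the same class. PSMD5, PSMA4 and PSME4 lie far below the line of their class, at −1.46, −0.96 and −0.61 against −0.10, and PSMF1, the member with an 8mer, lies at 0.04.

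Genes that serve the proteasome without carrying a PSM name were read from a list of 26, which holds the further chaperone POMP, receptors and deubiquitinases of the particle, shuttle proteins, the ubiquitin genes and the transcription factor NFE2L1. All 26 were tested: 1 rose and 0 fell in limma and in limma-voom alike. At an unadjusted p under 0.05, 2 were higher and 1 was lower, UCHL5, a deubiquitinase of the regulatory particle named after its values were seen, with a difference of −0.65 on the log2 scale (adjusted p = 0.0680, limma). Of all tested features limma called 6.59% higher and 9.18% lower, and limma-voom 7.21% and 9.72%. At the unadjusted threshold 13.0% of them were higher and 17.1% lower. Across the list the median log2 fold change was −0.07. POMP, which completes the beta ring, had FPKM of 113 ± 7.0 in the controls and 102 ± 3.22 in the pre-miR-203a group (SD, n = 3) and did not pass the test.

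The gene that rose was NFE2L1, known as NRF1, the factor that raises transcription of proteasome genes when proteasome activity falls. It measured 62.5, 59.4 and 52.3 FPKM with the empty vector and 135, 126 and 112 FPKM with the hairpin. Every pre-miR-203a library lay far above every control. NFE2L1 was higher by 1.09 ± 0.12 on the log2 scale (SE, n = 3 per group; limma, adjusted p = 0.00350). The authors' deposited table gives a value of 1.12 for it (adjusted p 1.10e-12). NFE2L1 is itself controlled after translation, so its message does not measure its activity. Beside this rise, 0 of the 44 tested proteasome genes rose, against 6.59% of all tested features. A link between NFE2L1 and their levels was not tested.

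NFE2L1 and its relative NFE2L2 bind antioxidant response elements, whose core is written TGACNNNGC, with N for any base. The promoters in the RefSeq table, 250 bases before to 50 after each start on GRCh38.p14, were searched for these letters on both strands. Of the 46 members 40 matched, with 49 promoters, and 15 of these promoters, or 30.6%, held the motif. It was present in 13.3% of all 35116 promoters of the table and in 14.7% of those of tested genes. Counted by gene, 37.5% of the 40 members and 19.5% of the tested genes held it in at least 1 promoter. The CCAAT box was found in 38.8% of member promoters and 34.6% of all.

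All 4 members that fell have the motif in at least 1 listed promoter. Over the 15 tested members with the motif the median log2 fold change was −0.06, with 4 lower, and over the 23 without it −0.05, with 0 lower. Among all tested genes with a promoter in the table, 9.45% of 1661 with the motif fell and 9.84% of 6840 without it. Stretches of 59 bases around it are given for the 4 genes, on the strand of the gene, with the matching letters in capitals; in PSME4 the match is on the opposite strand. They lie at chr9:120843023-120843081 on the minus strand for PSMD5, chr15:78540635-78540693 on the plus strand for PSMA4, chr21:39183601-39183659 on the minus strand for PSMG1 and chr2:53970994-53971052 on the minus strand for PSME4. The motif begins 134, 126, 183 and 34 bases before the start in that order, and the start used for PSMA4 is 1 of 3 in the table. The promoters at the other PSMA4 starts do not hold the motif. The stretches of PSMA4 and PSMG1 lie inside the gene spans given above. A match describes letters in a window and not binding by a factor.
PSMD5: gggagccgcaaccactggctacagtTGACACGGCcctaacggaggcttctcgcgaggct
PSMA4: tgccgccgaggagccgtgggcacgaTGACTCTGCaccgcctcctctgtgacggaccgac
PSMG1: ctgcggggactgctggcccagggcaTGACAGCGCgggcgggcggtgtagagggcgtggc
PSME4: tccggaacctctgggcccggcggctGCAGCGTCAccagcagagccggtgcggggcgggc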

How the data were processed

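Per the submitters' processing notes the authors used build hg38 with DESeq2 1.28.1, featureCounts 2.0.0, MultiQC 1.6 and FastQC 0.11.5. Aligner, annotation and strandedness are not given in the sources used here. What the authors deposited were FPKM values, scaled to feature length and reads, and, per the file headers, TPM values, baseMean (a signal, the mean of size-factor-scaled reads), control-over-hairpin log2 fold changes with standard errors, and p-values. Signs are turned here to hairpin over control.

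Members and gene lists were chosen with earlier results of these data known. Raw counts were not among the files used. The group difference in log2(FPKM + 1) was therefore tested with limma 3.58.1 (R 4.3.3; eBayes, mean trend, robust variances, two-sided). The filter was FPKM 1 reached by 3 libraries, which left 11271 features. Fold changes on this scale understate changes of low features. Reads were worked back from the FPKM with the help of the deposited baseMean: 100% of values came out whole within 0.01, and they gave the depths and the limma-voom fit, which called 1096 features lower and 813 higher. Libraries of a group were not copies, with a chi-square of 11.1 to 88.4 per feature. The fit was run on simulated counts with a fixed spread and no effect of replicate number or feature length. That setting differs from these data, so the run does not bear on the calls made here. Named genes were all called members, the 2 largest changes of each role class, all immunoproteasome members, chaperones, activators and the inhibitor, the 6 members nearest the threshold, members under the filter and called list genes.

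Libraries with the same replicate number deviated together, with correlations of 0.433, 0.269 and 0.321, each over 0.1. Control library 1 with hairpin library 2 was also over 0.1, at 0.221. The other pairs of unlike number ran from −0.417 to −0.0853. Deviations cancel out within a group, so these correlations are not independent. The numbers were taken to pair the samples from the data, and the labels state no shared batch or day. The fit with that block was an alternative. The 3′ UTRs came from GENCODE 29 on GRCh38, and the codon before the UTR was a stop in 78014 of 78345 transcripts. Promoters and the microRNA came from RefSeq. Python 3.11.15, numpy 2.4.6, pandas 2.3.3 and matplotlib 3.10.9 were used.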

Additional observations from a re-analysis of the deposited data

How the results depend on the processing

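The 44 tested members and NFE2L1 were refitted under 15 alternatives, and 656 of 670 gene values stayed on their side of the threshold; 7 lost the call, 7 gained it and 0 reversed, in 6 genes. PSMD5 and PSMA4 kept the call in every alternative run. Members called lower numbered 2 to 5 with 1 library left out. Without both libraries numbered 3, chosen after seeing the data, they numbered 8, with PSMB9, PSMG2, PSMG3 and PSME2 added, and features called lower and higher numbered 1951 and 1239. With 1 library left out, features called lower numbered 422 to 1338 and higher 323 to 919. With TPM values 434 features were called higher. Median log2 fold changes were −0.25 for core alpha subunits, −0.17 for the lid and −0.39 for base chaperones. With FPKM they were −0.14, −0.07 and −0.28. The median over all tested features also moved, from −0.01 with FPKM to −0.11 with TPM values. Without both libraries numbered 3 the medians were −0.47 for core chaperones and −0.26 for activators. With a minimum FPKM of 5 the base chaperone median was −0.87, since PSMD9 left the class. The cause of the other moves was not tested. With the replicate block, which pairs libraries by number, 4 members were called lower and 0 higher, 1122 features were lower and 848 higher, and no call of a member changed. PSMB9 passed with limma-voom, without mean trend and robust variances (adjusted p = 0.0466, limma) and without pre-miR-203a library 3 (0.0390). PSMB9 rests on as few as 25 reads in a library.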
